A study of Mus musculus with 281 samples.

Results

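The 36 genes described here carry glucose from outside the cell to lactate or to the gate of the mitochondrion: glucose transporters, the enzymes of each glycolytic step with their isozymes, the enzymes that set the pace of phosphofructokinase, lactate dehydrogenases, monocarboxylate transporters and pyruvate dehydrogenase kinases. They were taken by name from the gene table, and all 36 were among its 47752 genes. No expression value was used to choose them, although results of these data were known when the list was drawn up.

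Glycolysis splits glucose into pyruvate in the cytosol and yields ATP without oxygen. Pyruvate then either enters the mitochondrion through pyruvate dehydrogenase, which the Pdk kinases switch off, or is reduced to lactate and leaves through monocarboxylate transporters. The stria vascularis of the cochlea is a highly vascular epithelium that secretes potassium into the endolymph and generates the endocochlear potential, work that is known for its high demand for ATP.

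Single cells were drawn with a glass micropipette from the stria vascularis of male mice and sequenced after Smart-Seq2 amplification. There were 40 cells from Slc26a4+/- mice at postnatal day 26 to 33 (HET), 69 cells from Slc26a4-/- mice at postnatal day 24 to 44 (KO), and the rest came from Slc26a4+/+ mice at postnatal day 22 to 42 (WT), with the 129S6 background shared by the 3 genotypes. Slc26a4 encodes pendrin, the anion exchanger lost in Pendred syndrome, and the labels name no Cre driver or transgene, so the genotype is that of the whole mouse. The labels do not tie cells to mice, so each genotype counted as 1 sample, no p-value was computed and SD values are over cells.

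Cells were grouped by clustering without the 36 genes, and each cluster was named from marker genes. The named groups were intermediate cell-like (IMC-like, pigmented cells that hold the potassium channel Kcnj10; 60 WT, 23 HET and 34 KO cells), spindle cell-like (SC-like; 23, 2 and 9), root cell-like (RC-like; 16, 6 and 13) and marginal cell-like (MC-like, the cells that face the endolymph; 14, 2 and 5). The other 2 clusters, of 57 cells (48 WT, 3 HET, 6 KO) and 17 cells (11, 4 and 2), stayed unnamed. Total estimated counts per cell ran from 1848 to 5452520 in WT cells, from 467483 to 7932729 in HET cells and from 198085 to 5111599 in KO cells. The RNA of the targeted gene did not separate the genotypes in every cell type: mean Slc26a4 was 912 CPM in WT and 174.05 CPM in KO SC-like cells, but 1050 CPM in WT and 1222 CPM in KO RC-like cells. Cells were sequenced in 4 batches by run date, and all KO cells of the named types came from batches 2 and 4. In bulk or pooled values, fewer cells with a transcript and less transcript per cell cannot be told apart, so the share of cells with a count is given beside the means of genes found in few cells.

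Members were compared between cell types in WT cells first, as mean CPM (counts per 1e6 counts of the cell). A member was called for a cell type where its mean reached 10 CPM and was at least 2-fold that of every other named type, a rule of size with no test. At least 1 named type reached 10 CPM for 28 of the 36 members, and 11 of these (39.3%) were called, against 35.7% of all 11393 genes at that level. The 11 called members were unevenly placed. IMC-like cells held 7 of them, RC-like cells 2 (Slc2a1 and Pdk4), MC-like cells 2 (Pfkfb3 and Slc16a1) and SC-like cells 0, where the background over all genes was 9.03%, 11.7%, 6.29% and 8.69%. The highest mean of a member lay in the IMC-like group for 11 of the 28, in the MC-like group for 11, and in each of the other named groups for 3. Over all genes at this level the shares were 24.1% (IMC-like), 19.9% (MC-like), 27.2% (SC-like) and 28.8% (RC-like).

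**Figure D1:**
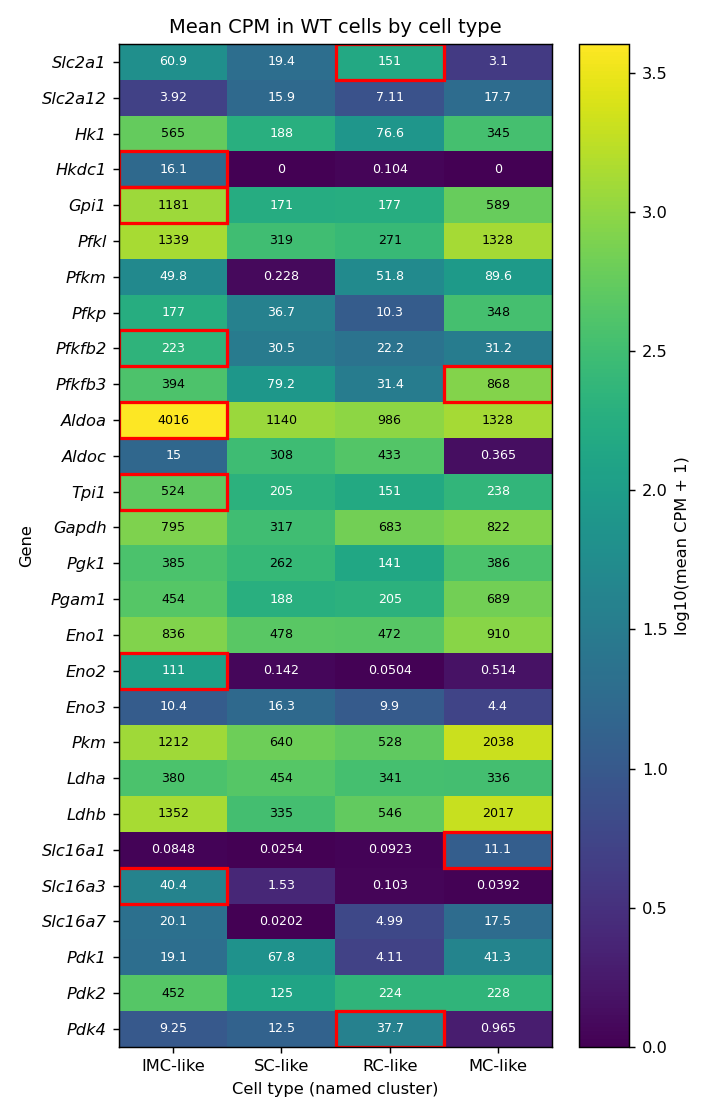
Mean CPM of the 28 members that reached 10 CPM (one per line) in the 4 named cell types of WT cells (columns), with a red box where the mean was at least 2-fold that of every other type. The boxes fall on 7 members in IMC-like cells, 2 in RC-like cells and 2 in MC-like cells.

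Few of the glucose transporters among the members were abundant as RNA. Slc2a1 (GLUT1, the transporter of basal glucose uptake) averaged 150.6 CPM in the RC-like group and 60.9 CPM among IMC-like cells, and was down at 19.4 CPM in SC-like and 3.10 CPM in MC-like ones. Its level was very uneven among cells. In RC-like cells the lowest value was 0, the median 1.69 CPM and the highest 1233 CPM, and 9 of 16 cells (56.2%, exact binomial 95% interval 29.9 to 80.2%) had a count, against 3 of 14 MC-like cells (21.4%, 4.66 to 50.8%). Such intervals cover counting error only and leave out variation between mice and batches. The RC-like mean was 2.48-fold the IMC-like mean, but without the cells of batch 4 the order turned and the log2 ratio was -0.15. Slc2a12, a further glucose transporter, stayed at or under 17.7 CPM in every type, and its reads overlap those of the neighbouring gene Tbpl1, which had 12165 counts against its 3529. Slc2a3, the neuronal transporter, and Slc2a4, the insulin-responsive one, did not reach 10 CPM in any named type, with means of at most 2.66 and 1.85 CPM.

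Hexokinase traps glucose in the cell as glucose phosphate. Hk1, the isozyme bound to the mitochondrial surface, averaged 565 CPM in IMC-like cells (SD 458, n = 60), 345 CPM in MC-like cells (SD 331, n = 14), 188.03 CPM in the SC-like group and 76.6 CPM in the RC-like group. Hk2, the isozyme of insulin-responsive tissues, averaged at most 1.77 CPM in any named type. Per transcript length, in TPM (a share of transcripts rather than of reads), the mean of Hk1 in IMC-like cells was 260 TPM and that of Hk2 1.22 TPM, so Hk1 was the main hexokinase transcript there. Hkdc1, a hexokinase-like protein, was called for IMC-like cells at 16.1 CPM, but it had a count in only 6 of 60 of them (10%, 3.76 to 20.5%), and its highest cell held 447 CPM. It had no count in the 23 SC-like or the 14 MC-like cells.

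Phosphoglucose isomerase and phosphofructokinase follow. Gpi1, the isomerase, was called for IMC-like cells with a lowest value of 0, a median of 1052 and a highest of 3891 CPM, a mean of 1181 CPM against 589 CPM in MC-like cells. This ratio of 2.01-fold lay just inside the limit. Pfkl, the liver-type phosphofructokinase, had nearly equal means in IMC-like (1339 CPM) and MC-like cells (1328 CPM) and lower ones among SC-like (319 CPM) and RC-like cells (271.3 CPM). Pfkl was also the main phosphofructokinase per length: in IMC-like cells its mean was 570 TPM, that of Pfkp, the platelet type, 121.04 TPM and that of Pfkm, the muscle type, 26 TPM. Pfkp lay just outside the limit, with MC-like cells at 348 CPM and 1.97-fold the IMC-like mean of 176.6 CPM. Pitrm1 overlaps Pfkp at 1 end and held 51.8% as many counts. Reads from the stretch that they share cannot be told apart.

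The Pfkfb enzymes make and remove fructose bisphosphate, the strongest activator of phosphofructokinase, and their isozymes were divided between cell types. Pfkfb2, the heart isozyme, averaged 222.7 CPM in IMC-like cells, 7.14-fold the next type, with a median of 144.4 and a highest value of 1113 CPM. It had at least 10 counts in 51 of 60 IMC-like, 6 of 23 SC-like, 4 of 16 RC-like and 4 of 14 MC-like cells. Part of its sequence is shared with the overlapping genes Gm29427 and Yod1, which held 6.16% and 28.5% as many counts. Reads from the shared stretches cannot be told apart. Pfkfb3, the inducible isozyme that favours the kinase reaction most, was called for MC-like cells. Its values there were 2.77 CPM at the lowest, 748 at the median and 2343 at the highest, and the mean of 868 CPM was 2.20-fold that of IMC-like cells, where the lowest was 0, the median 135.6 and the highest 2646 CPM. Individual IMC-like cells therefore reached the level of the highest MC-like cells. Pfkfb4 and Pfkfb1 had means of at most 5.26 and 3.21 CPM in any named type.

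Aldolase, which splits the phosphorylated sugar, gave the clearest division of isozymes. Aldoa (chr7:126800790-126809108, GRCm38, minus strand) averaged 4016 CPM in IMC-like cells (SD 1723, n = 60; lowest 793, median 3998, highest 9318), against 1328 CPM among MC-like cells (13.9, 1241 and 3082), 1139.7 CPM among SC-like cells (98.6, 826 and 3091) and 986 CPM among RC-like cells (4.02, 666 and 4316). The IMC-like median lay above the highest SC-like and MC-like cell. The ratio to the next type was 3.02-fold, and the log2 ratio was 0.79 in batch 1, 1.71 in batch 2 and 1.72 in batch 3. In all 10 collections (cells of 1 batch, collection number and age) that held enough cells of both kinds, IMC-like cells were above the other types. Aldoc, the brain isozyme, ran the other way, with means of 433 CPM in RC-like and 308 CPM in SC-like cells, against 15 CPM in the IMC-like and 0.365 CPM in the MC-like group. It had at least 10 counts in 10 of 16 RC-like and 15 of 23 SC-like cells, in 6 of 60 IMC-like cells and in none of the 14 MC-like cells. Because RC-like and SC-like cells differed little in Aldoc, it was called for neither.

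**Figure D2:**
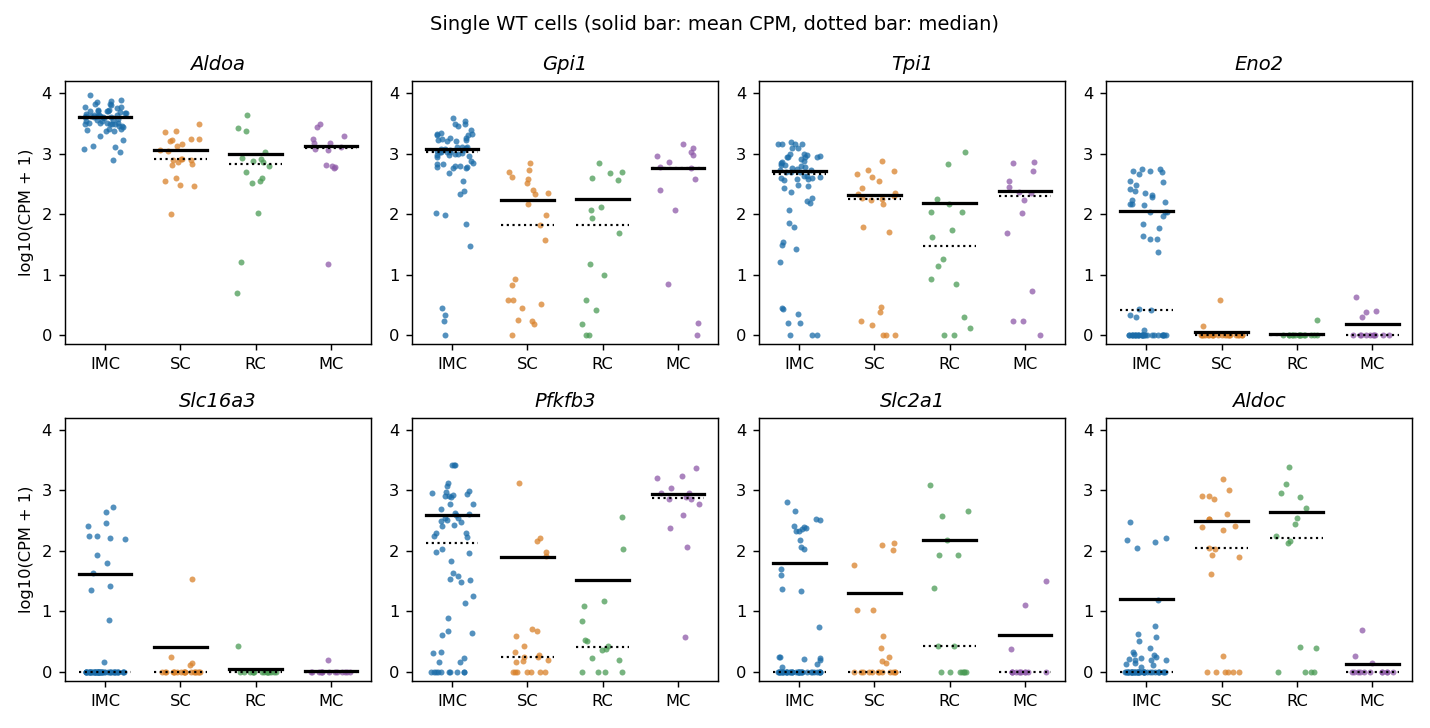
CPM per WT cell of 8 members in the 4 named cell types, each point 1 cell, solid bar the mean and dotted bar the median. Aldoa is at 793 CPM or more in all IMC-like cells, whereas Eno2, Slc16a3 and Slc2a1 are at or near 0 in many cells of the type with the highest mean.

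Below aldolase, the enzymes of the triose part were broadly present. Tpi1, triose phosphate isomerase, was called for IMC-like cells (mean 524 CPM, median 459, highest 1538) at 2.20-fold the MC-like mean of 238.3 CPM. Gapdh, Pgk1, Pgam1, Eno1, Pkm and Ldhb were high in both IMC-like and MC-like cells and were called for neither. Gapdh averaged 822 CPM (MC-like), 795 CPM (IMC-like), 683 CPM (RC-like) and 317 CPM (SC-like). Pkm, pyruvate kinase, averaged 2038 CPM (MC-like), 1212 CPM (IMC-like), 639.7 CPM (SC-like) and 528 CPM (RC-like). Ldhb, the lactate dehydrogenase subunit of oxidative tissues, averaged 2017, 1352, 335 and 546 CPM in the order used for Pkm. Ldha, the subunit of glycolytic tissues, differed little, between 336 CPM in MC-like and 454 CPM in SC-like cells. Per length, Ldhb stood above Ldha in MC-like (2415 against 327.3 TPM), IMC-like (1806 against 411 TPM) and RC-like cells (629 against 321 TPM), but not in SC-like cells (433 against 499 TPM).

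Eno2, the neuronal enolase (chr6:124760053-124769673, minus strand), was found in IMC-like cells and almost nowhere else among the named types. It had at least 10 counts in 28 of 60 IMC-like cells and in 0 of the 23 SC-like, 16 RC-like and 14 MC-like cells. Among IMC-like cells the lowest value was 0, the median 1.65 and the highest 565 CPM, for a mean of 110.9 CPM against at most 0.514 CPM elsewhere, so that cells with and without Eno2 stood side by side in the type. After each cell was thinned to 100000 counts, 31 of 60 IMC-like cells (51.7%) still had a count and no SC-like, RC-like or MC-like cell did. Eno1 remained the main enolase per length in IMC-like cells, at 733 TPM against 90 TPM for Eno2.

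The exits of the pathway differed by cell type at low levels. Slc16a3 (MCT4, the lactate exporter of glycolytic cells) averaged 40.4 CPM among IMC-like cells, whereas no other named type was above 1.53 CPM, with at least 10 counts in 14 of 60 IMC-like cells. Slc16a1 (MCT1) was called for MC-like cells at 11.1 CPM, from 3 of 14 cells with at least 10 counts. Slc16a7 (MCT2, the carrier with high affinity for pyruvate) had close means in IMC-like (20.1 CPM) and MC-like cells (17.5 CPM). Among the kinases that shut pyruvate dehydrogenase, Pdk2 was the most abundant in IMC-like cells, where it averaged 452 CPM against 227.7 CPM in the MC-like group, a ratio of 1.99 that fell just short. Pdk4, the kinase induced by fasting, was called for RC-like cells at 37.7 CPM, with at least 10 counts in 4 of 16. The remaining members under 10 CPM were Pgam2, the muscle mutase, and the gluconeogenic phosphatases Fbp1 and Fbp2, whose means were at most 2.63, 4.34 and 0.95 CPM.

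Summed over the 18 members that catalyse the steps from hexokinase to pyruvate kinase (3 hexokinases, Gpi1, 3 phosphofructokinases, 2 aldolases, Tpi1, Gapdh, Pgk1, 2 mutases, 3 enolases and Pkm), WT IMC-like cells held a mean of 11686 CPM (lowest 809, median 12188, highest 33372) and MC-like cells 9121 CPM (5597, 8309 and 13928). SC-like cells held 4273 CPM (1302, 3871 and 7527) and RC-like cells 4196 CPM (662, 3989 and 9323). The IMC-like median was above the highest SC-like and RC-like cells, although the lowest IMC-like cells reached down into their range. Within batches the IMC-like mean ran from 9413 CPM in batch 2 to 17078 CPM in batch 4.

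**Figure D3:**
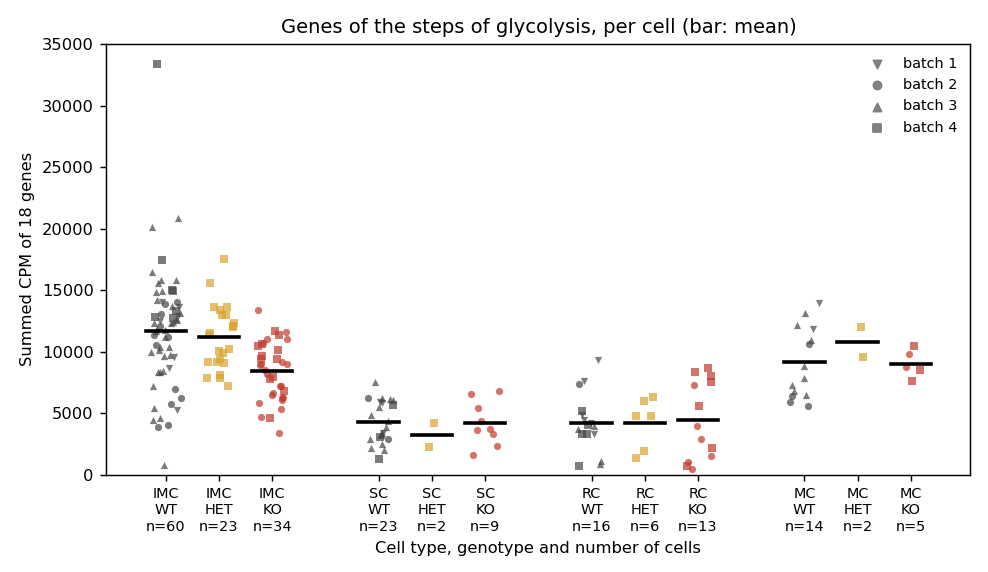
Summed CPM of the 18 glycolytic step members per cell, by named cell type and genotype, each point 1 cell with the marker showing its batch. WT means were 11686 CPM (IMC-like), 9121 (MC-like), 4273 (SC-like) and 4196 (RC-like), and the KO IMC-like mean was 8394. Within batch 4 the IMC-like means were 17078 CPM (WT), 11167 (HET) and 9143 (KO).

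Pyruvate kinase comes from the gene Pkm in 2 forms that use one or the other of a pair of neighbouring exons. The M1 form is constitutively active and typical of adult muscle and brain, and the M2 form can be switched down and is typical of growing tissue. The sequences of both exons are shown because the estimate of each form rests on the bases in which they differ. Both exons lie on the plus strand of GRCm38, M1-type at chr9:59675029-59675195 and M2-type at chr9:59675568-59675734, each exon 9 of its transcript. They are equally long and 64 of their bases differ (61.7% identity), which are in capitals.
Pkm M1-type exon: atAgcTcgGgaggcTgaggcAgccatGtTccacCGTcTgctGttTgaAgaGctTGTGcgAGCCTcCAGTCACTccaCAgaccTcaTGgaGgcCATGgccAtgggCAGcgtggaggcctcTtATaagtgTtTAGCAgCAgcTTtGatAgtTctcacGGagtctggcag
Pkm M2-type exon: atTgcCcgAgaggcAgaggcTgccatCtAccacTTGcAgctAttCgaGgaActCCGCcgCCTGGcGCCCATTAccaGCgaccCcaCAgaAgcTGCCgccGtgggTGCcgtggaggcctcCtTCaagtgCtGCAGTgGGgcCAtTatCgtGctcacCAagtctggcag

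The M2-type transcript was the larger part of Pkm in nearly every WT cell. Of cells with at least 100 Pkm counts, it took the larger share of TPM in 52 of 55 IMC-like, 12 of 13 MC-like, 9 of 10 RC-like and all 14 SC-like cells. The M1-type share over cells with Pkm had a median of 17.3% among MC-like cells (range 0 to 64.7%, n = 14), 5.6% among IMC-like cells (0 to 73.2%, n = 59), 1.25% among SC-like cells (0 to 50%, n = 23) and 0.226% among RC-like cells (0 to 50%, n = 16). The ranges overlapped throughout. From summed counts the shares were 18.8%, 11.9%, 16% and 3.90% in the same order, so MC-like cells came first and RC-like cells last by either measure while IMC-like and SC-like cells changed places. In KO cells the median M1-type share was 10.3% for the IMC-like and 17.1% for the MC-like group, 0 for the SC-like group and close to 0 for the RC-like group. The IMC-like share from summed counts was 10.3% in KO and 11.9% in WT cells, so the higher KO median was not seen in the summed counts. The transcripts differ at both ends as well, by 391 bases found only in the M2-type, so the shares are estimates for whole transcripts and not for the exon alone.

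Promoters were read next for ACGTG, the core motif of hypoxia-inducible factor, of which many glycolytic genes are classical targets. Hif1a, which encodes its regulated subunit, was called for IMC-like cells (1791 CPM against at most 284.6 CPM elsewhere). Whether the factor acts on the members in these cells was not tested. Windows of 300 bases around the RefSeq starts (GRCm38.p6) were at hand for 33 of the 36 members, with 52 promoters. ACGTG, searched on both strands as ACGTG or CACGT, lay in 21 of 52 windows (40.4%), against 19.6% of all 32851 windows. The members' windows were also rich in CpG, and among the 11378 windows with at least the members' median CpG the share was 28.4%. Of 38 matches in members, 31 lay before the start, where 250 of the 300 bases of each window lie. The 250 bases before the start are given for 4 members whose levels differed between cell types or genotypes, with the matches in capitals. They are Slc16a3 (chr11:120948817-120949066, plus strand), the first promoter of Pfkfb3 (chr2:11553930-11554179, minus strand), the first promoter of Ldha (chr7:46845554-46845803, plus strand) and Eno2 (chr6:124769674-124769923, minus strand), each written 5′ to 3′ on the strand of its gene.
Slc16a3: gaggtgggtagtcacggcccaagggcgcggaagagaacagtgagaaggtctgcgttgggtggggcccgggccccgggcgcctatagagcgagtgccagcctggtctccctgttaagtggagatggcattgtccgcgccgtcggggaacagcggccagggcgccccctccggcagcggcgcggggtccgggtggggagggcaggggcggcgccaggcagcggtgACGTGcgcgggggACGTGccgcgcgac
Pfkfb3: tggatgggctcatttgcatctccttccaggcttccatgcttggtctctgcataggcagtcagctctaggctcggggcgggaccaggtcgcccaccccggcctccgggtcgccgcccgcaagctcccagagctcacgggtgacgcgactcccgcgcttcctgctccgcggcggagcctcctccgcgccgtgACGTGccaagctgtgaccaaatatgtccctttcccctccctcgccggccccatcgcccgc
Ldha: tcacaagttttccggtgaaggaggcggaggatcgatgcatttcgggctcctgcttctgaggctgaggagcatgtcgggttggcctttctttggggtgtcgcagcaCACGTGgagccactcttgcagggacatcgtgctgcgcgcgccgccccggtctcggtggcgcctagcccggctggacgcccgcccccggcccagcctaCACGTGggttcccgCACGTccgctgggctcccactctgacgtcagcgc
Eno2: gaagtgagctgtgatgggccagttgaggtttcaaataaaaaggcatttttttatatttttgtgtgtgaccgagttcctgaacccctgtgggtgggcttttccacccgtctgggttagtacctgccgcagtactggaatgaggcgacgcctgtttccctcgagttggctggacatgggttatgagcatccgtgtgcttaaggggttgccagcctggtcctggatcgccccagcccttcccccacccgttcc
Slc16a3 held 2 matches, at -27 and -14 from the start, Pfkfb3 1 match at -60, and Ldha 5 matches, of which the palindromic CACGTG counts as 2 that overlap. Eno2, which was called for the same cell type as Slc16a3, held none in this window. Ldha, with the most matches of these 4, was a member with nearly level means across the cell types. A match describes letters and not binding.

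Of the surrounding pathway, 14 genes of the hypoxia response reached 10 CPM in a named type and 4 were called (28.6%, below the 35.7% of all genes), each for IMC-like cells. These were Hif1a, Adm (adrenomedullin, 179.4 CPM against at most 0.821 CPM), P4ha2 (a collagen prolyl hydroxylase, 33.4 CPM) and Epas1 (17.3 CPM). Genes of glycogen synthesis and breakdown were called for 3 types, among them Gyg, the glycogenin primer (269.5 CPM), and Pgm1 (62.4 CPM) for IMC-like cells, Gys1, glycogen synthase (55.3 CPM), and the phosphorylase Pygb (328.9 CPM) for SC-like cells, and the lysosomal glucosidase Gaa (710.1 CPM) for RC-like cells. Of 5 other sugar transporters 3 were called: Slc5a1, the sodium-coupled glucose transporter (63.6 CPM), and Slc2a8 (355 CPM) for MC-like cells, and Slc2a10 (39.9 CPM) for SC-like cells. Slc5a1 was at or under 0.0629 CPM in the other 3 types. MC-like cells were thus high in Slc5a1 where Slc2a1 was lowest.

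The further lists had scattered calls, and the shares called were 25% for pyruvate entry, 22.2% for the pentose phosphate pathway, 20% for other isozymes and 38.5% for regulators, below or near the 35.7% of all genes. Calls among monocarboxylate transporter chaperones and other Slc16 carriers included Emb, the chaperone embigin, for RC-like cells (499.8 CPM), and Slc16a10, a carrier of aromatic amino acids (190.7 CPM), and Slc16a6 (99.2 CPM) for IMC-like cells. Of 12 genes that bring pyruvate into mitochondria 3 were called, Mpc2 of the pyruvate carrier for MC-like cells (175.8 CPM), and the phosphatases Pdp1 (SC-like, 41 CPM) and Pdp2 (RC-like, 26.7 CPM). Of 9 pentose phosphate genes 2 were called, H6pd for IMC-like (84.7 CPM) and Pgd for MC-like cells (136.9 CPM). Gpd2, the mitochondrial glycerol phosphate dehydrogenase (421 CPM), was called for IMC-like and Gpd1l (319 CPM) for MC-like cells, out of 5 genes. Of 5 other isozymes only Galm, which interconverts glucose anomers, was called, for RC-like cells (230.9 CPM). Of 13 regulators 5 were called: Ppargc1a (134.7 CPM), Prkaa1 (43 CPM) and Ppara (11.6 CPM) for IMC-like, Txnip (129 CPM) for SC-like and Irs2 (146.2 CPM) for MC-like cells.

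The genotypes were compared within each cell type, again with a limit of 2-fold on means of CPM + 1 where at least 1 group reached 10 CPM. In IMC-like cells 25 members were tested against this limit between KO and WT. Pfkfb3 was higher in KO, 1 of 25 against a background of 11.5% of 9569 genes, and 5 were lower, against a background of 17.8%: Pfkl, Pgk1, Slc16a3, Slc16a7 and Aldoc. The count of lower members is thus near the background. By ratio alone, with no limit on the level within a batch, Pfkl and Slc16a7 were also 2-fold lower within batch 2 and within batch 4, 2 of 25, where the background was 5.06%, and no member was 2-fold higher in all 3, where it was 4.96%. Slc16a7 lay under 10 CPM in both groups of batch 2 (0.0364 CPM in KO and 3.33 CPM in WT cells), so only Pfkl kept the full rule in both batches.

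Pfkl (chr10:77986947-78010083, minus strand) ran from 0 through a median of 1286 to 3792 CPM in the 60 WT cells, from 4.36 through 1103 to 3001 CPM in the 23 HET cells and from 3.29 through 546 to 1716.5 CPM in the 34 KO cells. The KO cells overlapped the lower part of the WT range, and the means were 1339, 1109.6 and 645 CPM. The KO over WT log2 ratio was -1.05 over all cells, -1.09 within batch 2 and -1.43 within batch 4. Within batch 4 the HET cells averaged 1109.6 CPM and the 7 WT cells 2014 CPM, a HET over WT log2 ratio of -0.86. KO over HET was -0.78 over all cells and -0.57 within batch 4, under the limit. By collection, the WT means ran from 335 to 2264 CPM over 16 collections (median 1330), the HET means from 991 to 1207 CPM over 3 and the KO means from 277.6 to 958 CPM over 7 (median 649), so the groups overlapped here too. Slc16a7 averaged 20.1 CPM in WT and 2.25 CPM in KO cells, from at least 10 counts in 9 of 60 and 3 of 34 cells, and its log2 ratio was -2.70 (batch 2 -2.06, batch 4 -3.09).

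Pfkfb3 (chr2:11471433-11554077, minus strand) had a median of 135.6 CPM in WT, 254.2 CPM in HET and 1252 CPM in KO IMC-like cells, with highest values of 2646, 1534 and 8866 CPM. Its means were 394, 372 and 1481 CPM, and 32 of 34 KO cells had at least 10 counts against 40 of 60 WT cells. The log2 ratio of KO over WT was 1.91 over all cells, 1.59 in batch 2 and only 0.42 in batch 4, so its size depended on the batch. Pgk1, phosphoglycerate kinase, averaged 174.4 CPM in KO and 385 CPM in WT cells (-1.14, with -0.90 in batch 2 and -1.89 in batch 4). Slc16a3 averaged 2.50 against 40.4 CPM (-3.56), with -5.00 in batch 4. In batch 2 the ratio was 1.51, but both groups were under 10 CPM there (3.33 CPM in KO and 0.515 CPM in WT cells). Aldoc averaged 0.194 against 15 CPM, a difference that rested on 6 WT cells with at least 10 counts and was -0.21 and -0.54 within the batches.

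Members that did not reach the limit were mostly lower in KO as well. Ldhb averaged 729 CPM in KO and 1352 CPM in WT cells (log2 ratio -0.89), Pkm 734 and 1212 CPM (-0.72), and Aldoa 2716 and 4016 CPM (-0.56, with -0.18 in batch 2 and -1.11 in batch 4). Of the 25 members 18 had a log2 ratio below 0 (72%, against 56% of all genes), and the median was -0.46 against -0.13 over all genes. This shift depended on the scaling of the libraries. With size factors in place of total counts 13 of 23 members were below 0 (56.5%, against 52.4% of all genes) and the medians were -0.09 and -0.06, whereas Pfkl (-1.02), Slc16a7 (-2.33) and Pfkfb3 (2.04) kept their size. The summed markers of intermediate cells averaged 58043 CPM in WT and 82625 CPM in KO IMC-like cells, and their part in the shift was not tested.

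**Figure D4:**
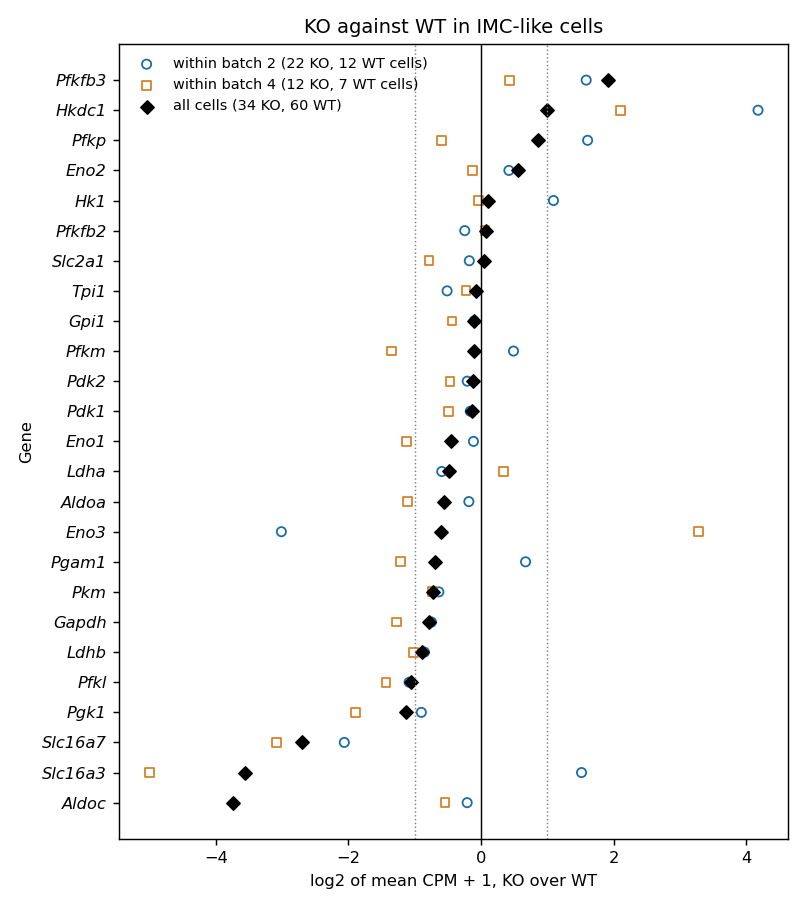
Log2 ratio of KO over WT mean CPM + 1 in IMC-like cells for the 25 members tested, over all cells (diamonds), within batch 2 (circles) and within batch 4 (squares). Pfkl and Slc16a7 lie at or beyond -1 in all 3, Pfkfb3 lies at 1.91, 1.59 and 0.42, and Slc16a3 lies on opposite sides of 0 in the 2 batches. For Slc16a3 and Slc16a7 both groups of batch 2 were under 10 CPM.

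Some members share long stretches of sequence with processed copies elsewhere, and 2 of these copies had their own genotype pattern. Gapdh, the dehydrogenase often used as a reference gene, has many copies in the genome, and the genes with at least 100 shared 31-mers together held 25.8% as many counts. Most lay on Gm13394, a processed pseudogene (chr2:28933610-28934609, minus strand). Gm13394 averaged 3.74 CPM over the WT cells, 79.8 CPM over the HET cells and 241.9 CPM over the KO cells, with at least 10 counts in 2 WT cells, 14 of 40 HET and 59 of 69 KO cells (85.5%). All 10 KO collections averaged at least 10 CPM, from 96.6 to 433 CPM, as did 2 of 23 WT collections and 2 of 4 HET collections (192.5, 102.9, 1.72 and 0.826 CPM). Gm4735 (chr2:80837141-80838442, plus strand), a copy of Eno1, averaged 8.59, 68.1 and 116.4 CPM in WT, HET and KO cells.

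**Figure D5:**
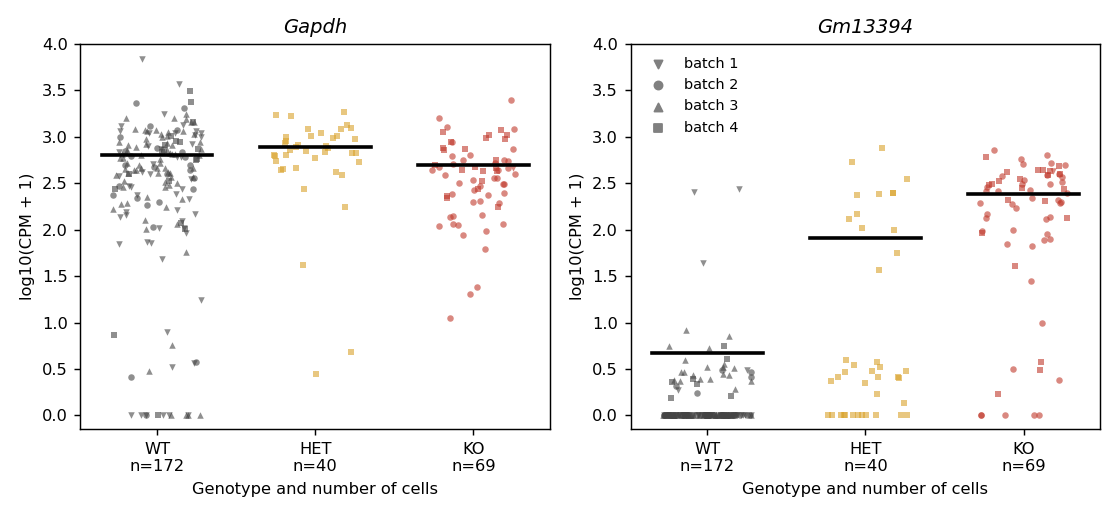
Gapdh and its copy Gm13394 per cell by genotype, as log10(CPM + 1), each point 1 cell. Nearly all WT cells lie at or near 0 for Gm13394, HET cells are spread over both levels, and 59 of 69 KO cells have at least 10 counts, for means of 3.74, 79.8 and 241.9 CPM.

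These copies touch the values of Gapdh directly. In IMC-like cells Gapdh averaged 460 CPM in KO and 795 CPM in WT cells (log2 ratio -0.79), and with the counts of its copies added 734 against 853 CPM (-0.22, with -0.09 in batch 2 and -0.84 in batch 4). For Pgam1, with the copy Pgam1-ps2, the ratio was -0.70 alone and -0.48 with copies, and for Eno1 it was -0.46 and -0.39. Eno1b shared so much sequence with Eno1 that it took 74.7% as many counts, so the level of Eno1 is uncertain in every group. Where the reads of a cell truly came from, the gene or its copy, cannot be told apart from these estimates.

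In RC-like cells, 13 KO cells were compared with 16 WT cells, of which 1 WT cell was in batch 2. Of 22 members 3 were higher in KO (background 23.1%) and 4 lower (background 28%). Hk1 averaged 194.1 CPM in KO (lowest 2.14, median 105.3, highest 823) and 76.6 CPM in WT cells (0, 6.39 and 809), with a log2 ratio of 1.33. Pfkp averaged 65.4 CPM in KO (0, 17.1 and 270.6) and 10.3 CPM in WT cells (0, 0.680 and 70.9), with a log2 ratio of 2.55. The groups overlapped for both. Pgam2 was at 0 in every WT cell and averaged 14.1 CPM in KO cells, from 2 of 13 cells with at least 10 counts. By ratio alone these 3 were also 2-fold higher within batches 2 and 4, 3 of 22 against a background of 11.1%, although Pgam2 averaged only 7.73 CPM in the KO cells of batch 4. Against the 1 WT cell of batch 2, 70.9% of all genes were 2-fold higher in KO, so passing there says little. Within batch 4 the share was 35.2%. The reads of Pfkp overlap those of Pitrm1 here too.

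The 4 lower members in RC-like cells were Aldoc, Ldha, Pfkfb2 and Pfkm. Aldoc, the isozyme that marked RC-like and SC-like cells among WT cells, had a median of 160.5 and a highest value of 2407 CPM in WT, and a median of 0.494 and a highest value of 282.2 CPM in KO cells, for means of 433 and 70.04 CPM (-2.61). Within batch 4 its log2 ratio was only -0.56, and the -4.65 of batch 2 rested on 1 WT cell. In HET RC-like cells the median was 70.5 CPM (n = 6). Ldha averaged 156.5 CPM in KO and 341 CPM in WT cells (-1.12, and -1.85 and -1.31 within batches 2 and 4), but its median was higher in KO (130.2 CPM) than in WT cells (88.2 CPM). Ldha was the only lower member past the limit in both batches as well, where the background was 2.30%. Its -1.85 of batch 2 rested on the same 1 WT cell.

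In SC-like cells 9 KO cells, all of batch 2, stood against 23 WT cells, of which 2 were in batch 2, so batch and genotype can hardly be told apart. Of 26 members 6 were higher (background 22.1%) and 6 lower (background 33.4%). The higher ones rested on few cells: Pfkfb3 had at least 10 counts in 3 of 9 KO cells (mean 479 CPM, median 4.91, highest 3712) and 5 of 23 WT cells (mean 79.2 CPM), Eno2 in 3 of 9 and 0 of 23, Pfkfb4 and Hk2 in 2 of 9 and Slc2a12 and Pfkm in 1 of 9. The lower ones were Ldha (192.7 against 454 CPM, median 0 against 457), Pdk1 (9.42 against 67.8 CPM), Pgam1 (88.1 against 187.6 CPM), Pfkfb2 (1.41 against 30.5 CPM), Eno3 (4.55 against 16.3 CPM) and Pdk4, at 0 in all 9 KO cells and 12.5 CPM in WT cells. Pgam1 passed the limit alone (-1.08) but not with its copies (-0.95).

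The SC-like KO cells were also poorer in the markers of their own type. The 8 spindle cell markers summed to between 4297 and 24717 CPM per KO cell (mean 12074) and to between 11541 and 120743 CPM per WT cell (mean 44838), with all 8 at 10 CPM or more in both groups. They include Anxa1 and Wfdc18, which the study reported as lower in pendrin-expressing cells of Slc26a4-/- mice. The part of these genes in the lower sum was not tested. Marginal cell markers averaged 8881 CPM in the KO and 5054 CPM in the WT SC-like cells, and 4 of the 9 KO cells and 4 of the 23 WT cells held at least 10000 CPM of another named type's markers. Without those cells Pfkm had a log2 ratio of -0.11 in place of 4.17 and Slc2a12 -2.30 in place of 1.36. The part of mixed cells in the other values was not tested.

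MC-like cells gave 5 KO cells against 14 WT cells, with no WT cell in batch 4. Of 22 members 2 were higher in KO (Pfkfb2 and Eno3; background 26.1%) and 3 lower (Slc2a12, Slc16a1 and Pdk1; background 26.4%). The summed glycolytic step members averaged 9018 CPM in KO and 9121 CPM in WT MC-like cells, 4191 and 4273 CPM where cells were SC-like, and 4466 and 4196 CPM where they were RC-like. In IMC-like cells the KO sum was 8394 CPM (lowest 3396, median 8679, highest 13421), against 11686 CPM in WT and 11167 CPM in HET cells. Within batch 4, which held all the HET cells, the means were 17078 CPM in WT, 11167 in HET and 9143 in KO cells. Within batch 2 they were 9413 CPM in WT and 7986 in KO cells.

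HET IMC-like cells, all 23 of batch 4, were set against the same WT cells as the KO cells, so the comparisons share their controls. Of 27 members 3 were higher (Slc2a12, Hkdc1 and Pfkfb4; background 11%) and 3 lower (Aldoc, Eno3 and Slc16a7; background 20.1%), and the median log2 ratio was 0.01 against -0.13 over all genes. Within batch 4, where 7 WT cells remained, it was -0.52 against 0.05. Hkdc1 averaged 80.3 CPM in HET, 16.1 CPM in WT and 33 CPM in KO cells, with at least 10 counts in 9 of 23, 5 of 60 and 9 of 34 cells. Its HET over WT log2 ratio was 2.25 (2.47 within batch 4), and its KO over WT ratio was 0.99, just under the limit, with 4.18 and 2.10 within batches 2 and 4. Slc16a7 averaged 0.798 CPM in HET cells (-3.55, and -5.11 within batch 4).

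Set directly against HET cells, KO IMC-like cells were higher in 2 of 24 members (Pfkfb3 and Pfkp; background 19.7%) and lower in 4 (Slc2a12, Hkdc1, Pfkfb4 and Slc16a3; background 16.9%). Pfkfb3 differed by 1.99 on the log2 scale over all cells and by 1.44 within batch 4, and Slc16a3 by -3.78 and -4.60. Slc2a12 kept its difference within batch 4 (-3.97), but that batch held all the HET cells, so both values used the same HET cells. Its HET mean of 14.9 CPM came mostly from the highest cell, and the HET median was 0. The reads of Slc2a12 also overlap those of Tbpl1. Pfkp (0.73), Hkdc1 (-0.36) and Pfkfb4 (-0.40) fell under the limit within batch 4. Pfkp averaged 321 CPM in KO and 137.6 CPM in HET cells (1.22), and Pitrm1, which overlaps it, averaged 72.6 CPM in KO IMC-like cells.

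The surrounding pathway was compared between KO and WT IMC-like cells by the same limit. Of the hypoxia response 2 of 13 genes were lower and 0 higher: Bnip3, a mitophagy receptor (4.63 against 61.9 CPM, log2 ratio -3.48, with -4.23 and -3.61 within batches 2 and 4), and Adm (-1.33). Of 12 glycogen genes Gys1 was higher (1.70) and Gbe1 (-1.78), Pygl (-1.52) and Gaa (-1.04) were lower. Of 5 genes of gluconeogenesis and glycerol phosphate Gpd1, the cytosolic glycerol phosphate dehydrogenase, was higher at 134.5 against 7.604 CPM (3.98, with 4.17 and 5.98 within batches), as was Gpd1l (1.70). Of 4 other sugar transporters Slc2a9 (1.82) and Slc2a13 (2.35) were higher. Of 13 regulators Myc (36.1 against 0.05 CPM), Irs1 (273.99 against 50.8 CPM, 2.41) and Ppargc1a (1.03) were higher and Irs2 (1.43 against 34.5 CPM, -3.87), Txnip (-1.34) and Trp53 (-1.29) lower. The 2 insulin receptor substrates thus lay on opposite sides.

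Elsewhere in the pathway Pdp2 (log2 ratio 1.5) and Pdpr (1.82), a catalytic and a regulatory subunit of pyruvate dehydrogenase phosphatase, were higher among 11 genes of pyruvate entry. Rpe was lower among 8 pentose phosphate genes (-1.73), Ldhd among 5 other isozymes (-2.23), and Nptn (-1.09) and Slc16a10 (-1.32) among 4 chaperones and carriers. The background for each of these lists is the same 11.5% higher and 17.8% lower over all genes.

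Hypoxia response genes took other directions in the pendrin-expressing types. In SC-like cells 6 of 13 were higher in KO (46.2%, against 22.1% of all genes) and Bnip3 was lower. The higher ones were Hif1a (743 against 196.6 CPM), its partner Arnt (134.9 against 15.4 CPM), Vhl, Egln1, Vegfa and Ddit4. This comparison has the same batch and mixed-cell limits as that of the members. In RC-like cells 3 of 12 were higher (25%, against 23.1% of all genes: Epas1, P4ha1 and Higd1a) and 5 lower (41.7%, against 28% of all genes: Hif1a, Arnt, Vhl, Ero1l and Ndrg1). Hif1a averaged 49.1 CPM in KO and 191.1 CPM in WT RC-like cells, with a log2 ratio of -1.94 over all cells, 0.24 in batch 2 and -1.36 in batch 4.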

How the data were processed

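Single-cell RNA from picked stria vascularis cells was amplified with Smart-Seq2 and sequenced without strand information or molecular identifiers. The authors quantified reads per transcript with Kallisto on GRCm38, whose version is not given in the sources used here, and deposited estimated counts and TPM per cell. They also deposited a gene table of estimated counts summed by a program of their own, from which 17 columns that matched no sample were not used. The members and lists were chosen with earlier results of these data known.

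Estimated counts were scaled to CPM per cell, and TPM was summed per gene where genes were compared per length. All 281 cells were clustered with Seurat 5.3.0 in R 4.3.3 (1877 variable genes after the members, the pathway lists and the genes tabulated by the study were left out, 10 principal components, resolution 0.8), and a cluster was named when 80% of its cells scored highest for 1 marker list with 3 or more markers of that list detected. Each genotype was 1 sample, so no test was run: a limit of 2-fold on mean CPM with a pseudocount of 1 CPM (no pseudocount between cell types), with at least 10 CPM in 1 group, was applied to all genes, and members past it were named. All members are accounted for, and genes of the lists past the limit are named for WT cell types and for KO against WT in IMC-like cells, except 2 that are not reported here, with only the hypoxia list given for SC-like and RC-like cells. Exact binomial 95% intervals cover counting error only. Copies were genes elsewhere that share 31-mers with a member's transcripts. The procedure was tested on simulated data without batches, with planted changes larger than 2-fold in genes well above 10 CPM. The simulation therefore does not cover changes at the limit itself. Alternatives were TPM, median, size factors, other cell filters, clusterings, limits, pseudocounts and batches.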

Additional observations from a re-analysis of the deposited data

Results flagged for a closer look

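Pfkm, the muscle-type phosphofructokinase, lay on opposite sides of 0 in the pendrin-expressing cell types, with a KO over WT log2 ratio of 4.17 in SC-like cells and -1.004 in RC-like cells. The difference between the cell types was not tested, and without cells that held markers of another named type the SC-like value was -0.11.

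Members also appeared in WT cells that no comparison used. Eno2 averaged 113.4 CPM in the unnamed cluster of 57 cells, from 8 of its 48 WT cells with a count and a highest value of 4775 CPM, and Slc16a1 averaged 22.7 CPM there, from 5 of 48 cells. Pfkfb4 averaged 14.96 CPM in the unnamed cluster of 17 cells, all of it from 1 of its 11 WT cells.

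The processed copies of Gapdh and Eno1 were outside the comparisons of members. Gm13394 averaged 241.9 CPM and Gm4735 116.4 CPM over the KO cells, against 3.74 and 8.59 CPM over the WT cells.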

How the results depend on the processing

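With the levels taken from summed counts, 7 members were called for 1 WT cell type in place of 11, with medians 7, with size factors 17, with a limit of 50 CPM 7, and with a fold limit of 1.5 or 4 19 or 5. The KO against WT count in IMC-like cells was 6, and became 3 with a limit of 50 CPM, 13 with a fold limit of 1.5 and 13 within batch 4. In RC-like cells it was 7, and became 12 from summed counts, 14 with size factors, 15 with a limit of 1 CPM, 12 with a fold limit of 1.5, 16 and 14 within batches 2 and 4, 15 as the mean over those batches and 3 without the highest cell of each group. In SC-like cells it was 12, and became 4 with medians, 5 with a limit of 50 CPM, 19 within batch 2 and 7 without the highest cells. The HET against WT count was 6, and became 1 with medians, 3 with size factors, 1 with a limit of 50 CPM and 3 without the highest cells. Other alternatives stayed within 1.5 times, for 17 of 23, 18 of 21, 13 of 21, 15 of 19 and 15 of 19 in that order. From summed counts the M1-type share of Pkm was 11.9% in IMC-like and 16% in SC-like cells.

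Signs turned for Slc2a1 over the next type without batch 4 (-0.15) and for Slc16a3 in IMC-like cells within batch 2 (1.51, both groups under 10 CPM). In RC-like cells they turned for Ldha with medians (0.56) and Pfkfb2 with medians (0.78) and within batch 2 (2.08). In SC-like cells they turned for Pdk4 with types taken from marker scores (1.198), for Ldha (7.598) and Pgam1 (3.63) within batch 2, for Slc2a12 without the highest cells (-2.13) and without mixed cells (-2.30), and for Pfkm without mixed cells (-0.11). For HET they turned for Aldoc with medians (0.42) and within batch 4 (0.0011), for Eno3 within batch 4 (0.19) and for Pfkfb4 without the highest cells (-0.53). The cause was not tested. Adding copies, leaving out the highest or the mixed cells, and the mean over batches were chosen after seeing the data.

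Pfkfb2, Aldoa and Eno2 kept their WT cell type under 23, 22 and 22 of 23 alternatives, Pfkl and Pfkfb3 their KO call in IMC-like cells under 20 of 21, and Pfkp its call in RC-like cells under 21 of 21. The alternatives for Pfkp include batch 2 alone, with 1 WT cell. No paired analysis was possible because each genotype was 1 sample and no number in the labels pairs cells of different genotypes. Batch 4 held no KO SC-like cell, so the value within it was not run. Depth limits the members found in few cells, since 20 WT cells had under 100000 counts.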
